A study of Arabidopsis thaliana with 4 samples.

Results

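The CBF factors and the cold-regulated (COR) genes they control were followed in Arabidopsis thaliana seedlings given glutamine for 0.5 h. The genes were picked by locus and comprise 10 of the 33602 in the deposited table: the transcription factor genes CBF1 (AT4G25490), CBF2 (AT4G25470) and CBF3 (AT4G25480), and the effector genes RD29A (AT5G52310), COR15A (AT2G42540), COR15B (AT2G42530), KIN1 (AT5G15960), KIN2 (AT5G15970), COR47 (AT1G20440) and LTI30 (AT3G50970). RNA was sequenced from whole seedlings of the Columbia ecotype, 14 days old, in 2 libraries 0.5 h after transfer to 2.5 mM glutamine and in 2 libraries at 0 h. Every seedling had been raised in liquid medium without nitrogen, after 2 days at 4 °C as imbibed seed, at 22 °C under a cycle of 16 h light and 8 h dark. The 0.5 h seedlings were then moved to the same nitrogen-free medium with glutamine added, and the 0 h seedlings received none. Neither group was given a cold treatment in the labels. Seedlings moved to fresh medium without glutamine were not analysed here, so glutamine, the transfer and the 0.5 h of elapsed time cannot be told apart. The labels do not say whether the 2 libraries of a group came from separate cultures, so p-values measure the spread between these libraries, which may be technical.

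CBF proteins, also called DREB1 factors, belong to the AP2/ERF family and are the best known switch of cold acclimation in Arabidopsis. In the cold, the bHLH factor ICE1 and calmodulin-binding CAMTA factors switch the CBF genes on within minutes to hours, clock proteins set how strongly they respond at each time of day, and the CBF proteins then bind the CRT/DRE element, whose core is CCGAC, in the promoters of COR genes. The COR products include dehydrins and other hydrophilic proteins that protect membranes and proteins against freezing and drying, and many of the same genes also answer abscisic acid through the ABRE element.

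The CRT/DRE core is shown first, because the effector genes share it and the CBF genes do not have it in the stretch read here. Windows of 1000 bases before each start codon were read on both strands from the TAIR10.1 genome and its annotation (RefSeq). The CCGAC core occurred in all 7 effector genes, with 4 matches before RD29A, 3 before COR15A, 3 before LTI30, 2 before COR15B, 2 before KIN1, 1 before KIN2 and 1 before COR47, and in 0 of the 3 CBF genes. Of the 2 before COR15B, the one 825 bases before the start codon lies inside the annotated COR15A gene. Of 27443 such windows in the genome, 39.4% held at least 1 match, 11.4% at least 2, 3.18% at least 3 and 0.904% at least 4. The windows below carry the core in capitals with 10 bases on each side, written 5′ to 3′ on the strand of the match. They show all 3 matches of LTI30, the gene that was higher at 0.5 h, the single match of its fellow dehydrin gene COR47, 1 match of RD29A, and the promoter-proximal matches of the gene pairs COR15A and COR15B, and KIN1 and KIN2.
LTI30, chr3:18940532-18940556, minus strand, 283 bases before the start codon: tggttagcgaCCGACgtaattttaa
LTI30, chr3:18940555-18940579, plus strand, 260 bases before: cactactacaCCGACgtcttacttg
LTI30, chr3:18940624-18940648, minus strand, 191 bases before: tacgtgttggCCGACatcgtaaaag
COR47, chr1:7085918-7085942, minus strand, 268 bases before: tattcatctaCCGACttcaagaaat
RD29A, chr5:21240674-21240698, plus strand, 245 bases before: agatatactaCCGACatgagttcca
COR15A, chr2:17712218-17712242, minus strand, 266 bases before: aatttcatggCCGACctgctttttt
COR15B, chr2:17710124-17710148, minus strand, 265 bases before: aacttgatggCCGACctcttttttc
KIN1, chr5:5209804-5209828, plus strand, 178 bases before: taaatagctaCCGACataaggcaaa
KIN2, chr5:5211771-5211795, plus strand, 185 bases before: taaaaagctaCCGACataaggcaaa
The printed windows of COR47, COR15A, COR15B, KIN1 and KIN2 lay inside the transcript that TAIR10.1 annotates, upstream of the coding sequence, and those printed for LTI30 and RD29A lay outside it. A match is a run of letters in the reference and was not measured as a bound site.

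The CBF genes carried other elements. The evening element AAATATCT, which clock MYB proteins of the CCA1 and REVEILLE family bind, occurred 3 times before CBF1, 3 times before CBF2 and 2 times before CBF3, against 15.3% of all windows with at least 1 match. The ABRE ACGTGNC occurred once before each CBF gene, against 20.8% of windows, and 242 to 274 bases from the start codon in all 3. Evening elements lay 927, 830 and 515 bases before CBF1, 622, 542 and 200 before CBF2, and 596 and 189 before CBF3. The distances of those printed therefore depend on which match was picked. All those of CBF1 were on the other strand relative to the gene, and those of CBF2 and CBF3 on the same strand. The ABRE matches of CBF1 and CBF3 and the printed evening element of CBF3 lay inside the annotated transcript, upstream of the coding sequence. The 3 ABRE matches and 1 evening element of each CBF gene are printed, again with the element in capitals.
CBF1 ABRE, chr4:13022820-13022846, minus strand, 274 bases before the start codon: tgtactatacACGTGTCattcacagag
CBF2 ABRE, chr4:13016320-13016346, minus strand, 250 bases before: tttcttatccACGTGGCattcacagag
CBF3 ABRE, chr4:13019229-13019255, minus strand, 242 bases before: tgtatagtttACGTGGCattaccagag
CBF1 evening element, chr4:13023375-13023402, plus strand, 830 bases before: aattcccacaAAATATCTcaatctcaat
CBF2 evening element, chr4:13016269-13016296, minus strand, 200 bases before: acaaatatccAAATATCTtccggccaat
CBF3 evening element, chr4:13019175-13019202, minus strand, 189 bases before: tttgcctctaAAATATCTtccgccatta
Among the effector genes, evening elements were found before KIN1 (3), KIN2 (2), COR15A, COR15B and LTI30 (1 each), and ABRE matches before KIN2 (2), RD29A, COR15A and KIN1 (1 each). The CAMTA core CGCG was found before CBF2, RD29A and COR47, against 34.7% of windows, and the G-box CACGTG before CBF1, CBF2, COR15A, COR15B, KIN1 and KIN2, against 15.1%. ACGTGNC and CACGTG share the letters ACGTG, so their matches can overlap.

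**Figure D1:**
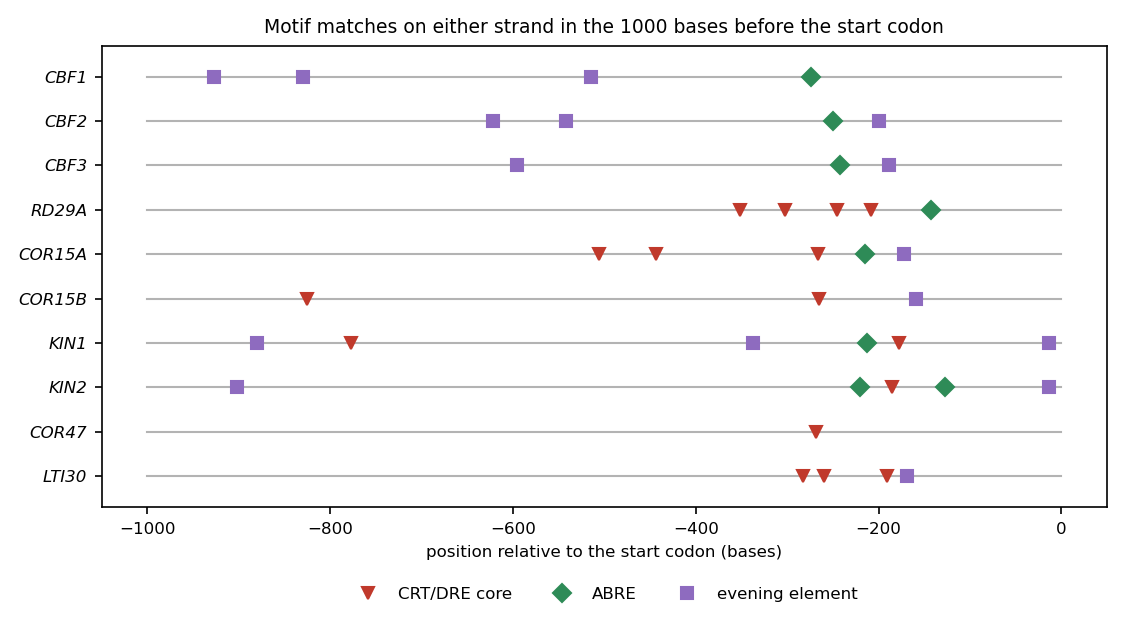
Positions of CRT/DRE core, ABRE and evening element matches, on either strand, in the 1000 bases before the start codon of each gene (horizontal axis, bases relative to the start codon). CRT/DRE core matches (triangles) are present in the 7 effector genes and in 0 of the 3 CBF genes, while evening elements (squares) are present in all 3 CBF genes and in 5 effector genes.

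Several of the genes are near neighbours with similar sequence. CBF1, CBF3 and CBF2 lie in a row on chromosome 4, and their coding sequences were 85.04 to 86.7% identical. COR15A and COR15B are adjacent on chromosome 2 (82.63% identical), and KIN1 and KIN2 are adjacent on chromosome 5 (95.02% identical over 201 coding bases). The first 60 coding bases of KIN1 and KIN2, printed with the differing base in capitals, show how alike the pair is.
KIN1: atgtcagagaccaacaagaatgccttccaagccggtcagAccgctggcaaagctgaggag
KIN2: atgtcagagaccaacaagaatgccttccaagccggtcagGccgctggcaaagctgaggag
The deposited table gives each gene's highest share of reads that map to several places, and this share was at most 0.037 among the 10 genes, so most of their reads were assigned to a single gene. CBF3 overlaps AT4G07385 and COR15B overlaps AT2G42520 in TAIR10.1. How the authors counted with respect to strand is not known here, and without strand the reads of 2 overlapping genes cannot be told apart.

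Levels are in RPKM, reads per kilobase of gene scaled to library size, which the authors had scaled by TMM (trimmed mean of M-values). Libraries held 26075046 and 20429739 reads in genes at 0.5 h and 26069135 and 27203588 at 0 h. Changes were tested with limma on log2(RPKM + 1) over the 18039 genes that averaged 1 RPKM or more, and a gene is called when its Benjamini-Hochberg adjusted p is below 0.05. Of all tested genes 11.8% were called, 6.71% as higher and 5.11% as lower at 0.5 h, and in 59.7% no library of one time fell within the range of the other. Of the 10 genes, 9 were tested. LTI30 rose, CBF1 and CBF2 fell, and the other 6 were not called. The groups did not overlap for 6 of the 9, a share close to that of all tested genes, and the median log2 change of the 9 was 0.10, against -0.03 over all tested genes. COR15A was below the minimum and was not tested. A single value from 2 libraries against 2 cannot reach an exact permutation p below 0.333, so the calls draw on the spread that limma pools across genes.

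The genes span a wide range of levels. COR47 averaged 497 RPKM at 0.5 h and 322 RPKM at 0 h and was the highest of the 10 at both times, and COR15A, with 0.436 and 0.495 RPKM, was the lowest. At 0 h the order ran from COR47 through KIN2, LTI30, COR15B, CBF2, RD29A, CBF1, CBF3 and KIN1 to COR15A. At 0.5 h LTI30 stood above KIN2, RD29A above CBF2, and KIN1 above CBF3. The 0 h libraries of CBF2 and RD29A overlapped, so their order at that time is within the spread.

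**Figure D2:**
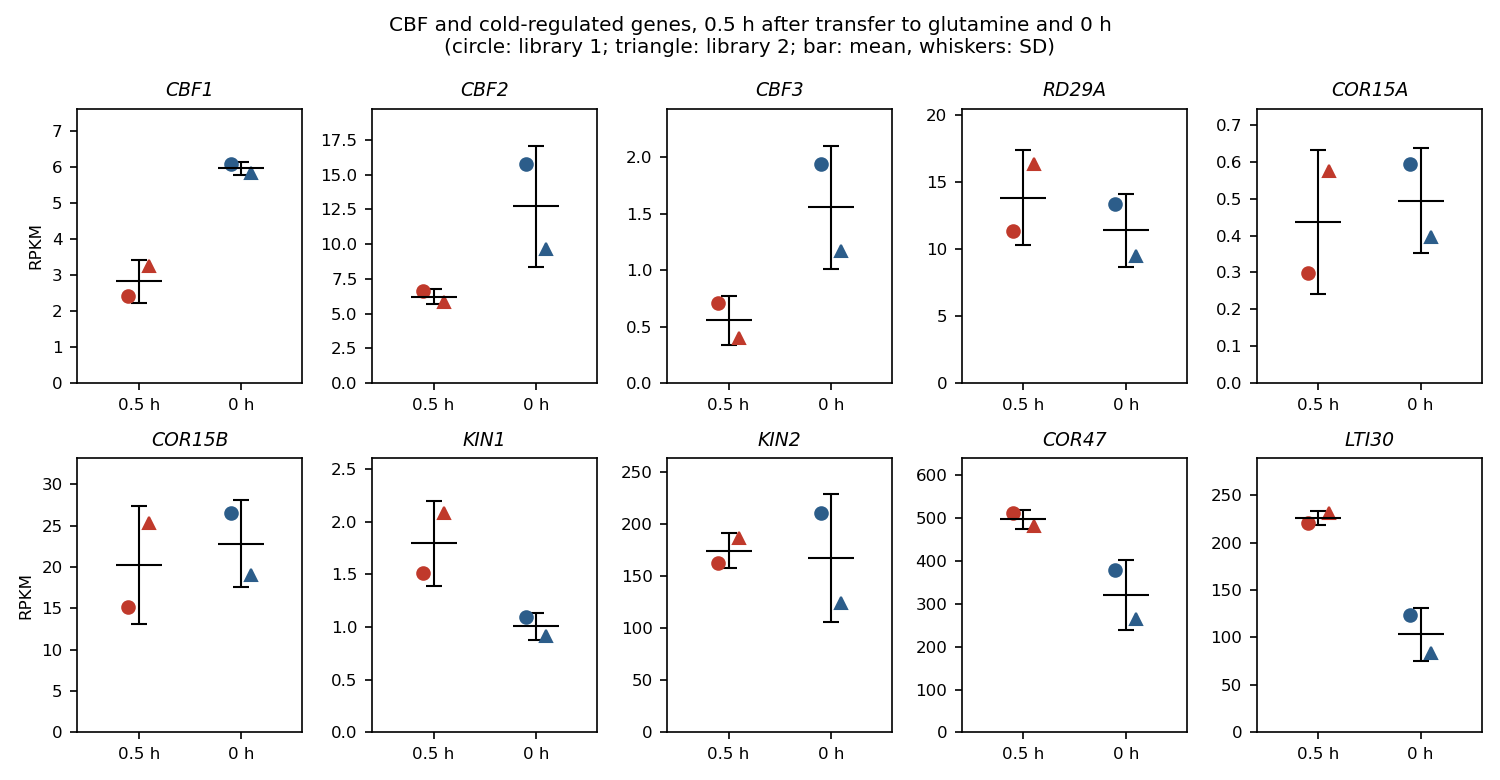
RPKM of the 10 genes in each library (vertical axes start at 0), with 0.5 h on the left and 0 h on the right of each panel; circles are library 1, triangles library 2, bars the mean and whiskers the SD (n = 2). CBF1, CBF2 and CBF3 lie lower in both 0.5 h libraries than in both 0 h libraries, KIN1, COR47 and LTI30 lie higher, and the remaining genes overlap between times.

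All 3 CBF genes had lower values in both 0.5 h libraries than in both 0 h libraries, and CBF1 and CBF2 passed the test. CBF1 had 2.40 and 3.24 RPKM at 0.5 h, against 6.09 and 5.84 RPKM at 0 h. The 0 h libraries were close to each other, and the mean at 0.5 h was 0.473 times that at 0 h. On the log2 scale CBF1 fell by 0.87 ± 0.16 (SE; 95% interval -1.26 to -0.49; adjusted p = 0.0206). CBF2, the most abundant of the 3, had 6.60 and 5.84 RPKM at 0.5 h, against 15.8 and 9.62 RPKM at 0 h. Its first 0 h library was the highest by a wide margin, and the second still lay above both 0.5 h libraries. CBF2 fell by 0.89 ± 0.22 (95% interval -1.42 to -0.36; adjusted p = 0.0471). CBF3, also known as DREB1A, had 0.709 and 0.400 RPKM at 0.5 h, against 1.94 and 1.17 RPKM at 0 h, with a log2 change of -0.71 ± 0.24 and an adjusted p of 0.107. Its values rest on 17 and 7 reads at 0.5 h, against 42 and 28 reads at 0 h, and the groups did not overlap; its change was -0.24 with a pseudocount of 5 and -1.45 by limma-voom, not called in either.

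Taken as 1 quantity, the length-weighted sum of CBF1, CBF2 and CBF3 was 9.81 and 9.59 RPKM at 0.5 h, against 24.1 and 16.8 RPKM at 0 h. It fell by 0.98 ± 0.18 on the log2 scale (adjusted p = 0.020). Shares of each gene were taken from recovered reads per kilobase rather than from that sum. By this measure CBF2 made up 68.2 and 61.8% at 0.5 h and 66.4 and 57.9% at 0 h. The CBF2 share thus differed more between replicate libraries than the means differed between times. CBF1 kept to 24.7 and 34.2% at 0.5 h and 25.5 and 35.1% at 0 h, and CBF3 to 7.14 and 3.97% at 0.5 h and 8.08 and 6.93% at 0 h. The CBF1 call was lost without the first 0 h library (adjusted p = 0.109) and without the second (0.0855), with a range of 0.0131 to 0.109 over its alternatives, and its change was -0.49 with a pseudocount of 5. The CBF2 call was lost without either 0.5 h library (change -0.97 without the first, -0.81 without the second) and without the first 0 h library (-0.56). Over the alternatives that keep all libraries, the adjusted p of CBF2 itself by limma or limma-voom ran from 0.0264 to 0.153.

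Fewer cells of a type and less RNA per cell cannot be told apart in whole seedlings, so tissue markers were read beside these values. Of 8 shoot markers, all tested, 0 were called higher and 2, the antenna genes LHCA4 and LHCB6, lower by limma at 0.5 h (0 and 4 at an unadjusted p under 0.05; 0 and 3 by limma-voom), and their summed RPKM was 25107 and 25309 at 0.5 h, against 30068 and 30833 at 0 h. RBCS1A, the small subunit of RuBisCO, had 7605 and 8092 RPKM at 0.5 h, against 7681 and 7963 RPKM at 0 h. LHCB1.3, a light-harvesting protein gene, had 13555 and 12922 RPKM at 0.5 h, against 15739 and 15997 RPKM at 0 h. RBCS1A and LHCB1.3 together held most of the shoot sum, and up to 0.208 of the LHCB1.3 reads were shared with other places. Of 8 root markers, 6 were tested and 0 were called (0 higher and 1 lower at an unadjusted p under 0.05; 0 by limma-voom). Their summed RPKM was 286 and 268 at 0.5 h and 237 and 409 at 0 h, where the 0 h libraries straddled the 0.5 h ones. The root-hair genes EXPA7 and COBL9 averaged under 1 RPKM and were the 2 left out. PYK10, an ER-body beta-glucosidase gene, had 165 and 166 RPKM at 0.5 h, against 158 and 273 RPKM at 0 h. NRT2.1, a nitrate transporter gene, had 68.6 and 67.5 RPKM at 0.5 h, against 30.8 and 68.8 RPKM at 0 h. As a gene of nitrogen uptake, NRT2.1 cannot serve as a plain tissue marker in seedlings given a nitrogen source. Up to 0.167 of the reads of PYK10, and 0.499 of those of the root marker PHT1, were shared with other places. By limma-voom 1315 of the 18039 tested genes were called higher and 1086 lower. The share of all tested genes at an unadjusted p under 0.05 is not given here, so counts at that threshold have no baseline. The part of tissue makeup in the changes was not tested.

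Among the effector genes LTI30 alone was called, and differences between effector genes were not tested. RD29A, which encodes a hydrophilic protein induced by cold, drought and salt, had 11.3 and 16.4 RPKM at 0.5 h, against 13.3 and 9.46 RPKM at 0 h. The groups overlapped, with a change of 0.26 ± 0.22 (95% interval -0.26 to 0.78; adjusted p = 0.481). The change was 0.51 without the first 0.5 h library and 0.49 without the first 0 h library, but 0.0098 without the second 0.5 h library and 0.030 without the second 0 h library. Its neighbour RD29B, a strongly abscisic acid-dependent homologue, had 2.29 and 2.49 RPKM at 0.5 h, against 3.005 and 2.45 RPKM at 0 h, and was not called either.

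COR15A and COR15B encode small chloroplast proteins that shield membranes during freezing. COR15B had 15.2 and 25.3 RPKM at 0.5 h, against 26.5 and 19.1 RPKM at 0 h. The values interleaved, and the change of -0.19 ± 0.26 had a 95% interval of -0.80 to 0.42 (adjusted p = 0.668). Without the first 0.5 h library it was 0.16, and without the first 0 h library 0.038. COR15A was far lower, with 6 and 9 reads at 0.5 h, against 11 and 8 reads at 0 h, where COR15B had 269 and 340 reads at 0.5 h, against 417 and 334 reads at 0 h. The exact 95% Poisson intervals of the COR15A counts, which cover counting error only, overlapped between all 4 libraries and ran from 2.20 to 13.1 for 6 reads and from 5.49 to 19.7 for 11 reads.

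KIN1 and KIN2 encode very small hydrophilic proteins. KIN2 was abundant, with 163 and 187 RPKM at 0.5 h, against 211 and 124 RPKM at 0 h. The 0 h libraries lay on either side of the 0.5 h ones, and the change was 0.10 ± 0.25 (95% interval -0.50 to 0.71; adjusted p = 0.816). Without the second 0 h library the change was -0.27, and without the first it was 0.48. KIN1 had 1.51 and 2.08 RPKM at 0.5 h, against 1.10 and 0.918 RPKM at 0 h, from 22 and 23 reads at 0.5 h and 14 and 13 reads at 0 h. Its groups did not overlap, but the change of 0.47 ± 0.20 was not called (adjusted p = 0.174). Added together, the KIN pair changed by 0.11 ± 0.25 (adjusted p = 0.805) and the COR15 pair by -0.19 ± 0.26 (adjusted p = 0.669).

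The 2 dehydrin genes lay higher in both 0.5 h libraries. LTI30, whose product is a basic dehydrin that binds membranes, had 220 and 231 RPKM at 0.5 h, against 123 and 83.9 RPKM at 0 h. The 0.5 h libraries were nearly equal, both lay above both 0 h libraries, and the mean was 2.18 times as high. LTI30 rose by 1.14 ± 0.20 on the log2 scale (95% interval 0.66 to 1.63; adjusted p = 0.0182), above 97.96% of tested genes. The call was lost without the second 0.5 h library (adjusted p = 0.0776, change 1.11), with a range of 0.00727 to 0.0776 over its alternatives. COR47, an acidic dehydrin gene, had 512 and 482 RPKM at 0.5 h, against 380 and 264 RPKM at 0 h. Its groups did not overlap, but the change of 0.65 ± 0.21 (95% interval 0.16 to 1.14) missed the threshold (adjusted p = 0.0927). COR47 was called with quantile normalization (0.69, adjusted p = 0.0376) and without the first 0 h library (0.91, adjusted p = 0.0391), and had a change of 0.39 without the second (0.245), within a range of 0.0376 to 0.245.

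Both dehydrin genes have a dehydrin gene as neighbour. ERD10, beside COR47 on chromosome 1 and 73.53% identical to it in coding sequence, had 120 and 133 RPKM at 0.5 h, against 39.5 and 28.8 RPKM at 0 h. ERD10 rose by 1.87 ± 0.18 (adjusted p = 0.00469) and was called under each of its 15 alternatives. XERO1, beside LTI30 on chromosome 3 and 46.33% identical to it, had 29.2 and 22.7 RPKM at 0.5 h, against 49.1 and 23.6 RPKM at 0 h, with a change of -0.39 ± 0.32 (adjusted p = 0.462). The difference between neighbours was not tested. ERD10 held 3 CCGAC matches before its start codon, as LTI30 did, and XERO1 held 0. RD29A, with 4 matches, and RD29B, with 3, were not called, and a link between matches and change was not tested.

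**Figure D3:**
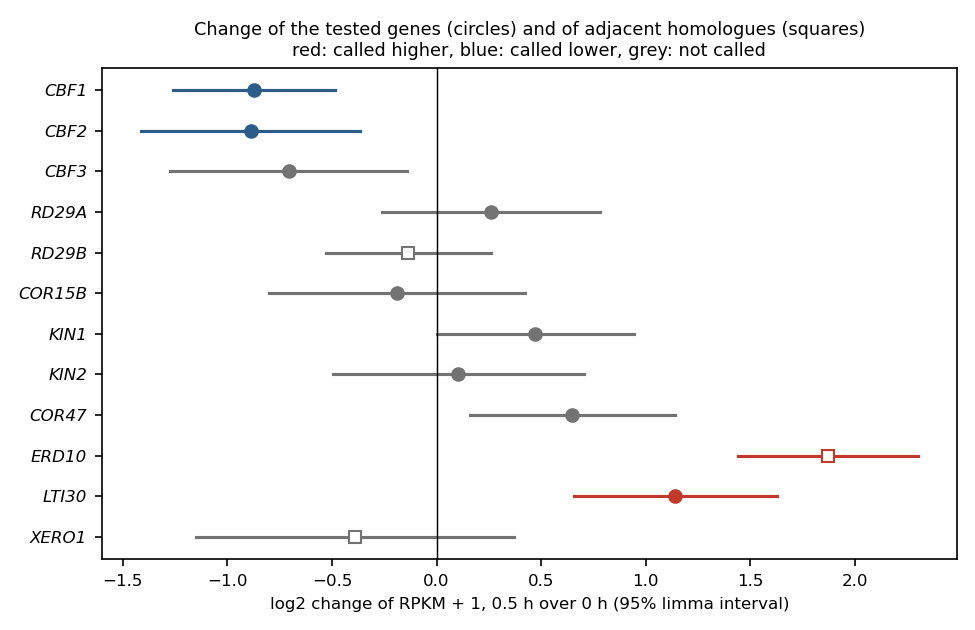
Log2 change of RPKM + 1, 0.5 h over 0 h, with its 95% limma interval (horizontal axis), for the 9 tested genes (circles) and for the adjacent homologues RD29B, ERD10 and XERO1 (open squares). CBF1 (-0.87) and CBF2 (-0.89) were called lower (blue), LTI30 (1.14) and ERD10 (1.87) higher (red), and the rest were not called (grey).

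Replicate libraries differed in the same direction for all 10 genes at 0 h but not at 0.5 h. At 0 h the first library was higher than the second for all 10 genes, by 1.04 times (CBF1) to 1.69 times (KIN2), with a median of 1.46. Over all tested genes 57.1% were higher in that library, with a median ratio of 1.03. At 0.5 h 3 of the 10 genes were higher in the first library, with ratios of 0.520 (COR15A) to 1.77 (CBF3). Without the first 0 h library the change was -0.56 for CBF2, 1.42 for LTI30 and 0.91 for COR47.

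The rest of the cold pathway was read from lists of its known genes. As background for this list and those that follow, limma called 6.71% of all tested genes higher and 5.11% lower. Limma-voom called 1315 of the 18039 higher and 1086 lower. For counts at an unadjusted p under 0.05 no such share is given, so they have no baseline. The lists were chosen with earlier results of these data known, so a count above these shares is not evidence about a list. Of 22 regulators of CBF expression, 21 were tested, 1 rose and 8 fell, with a median change of -0.20. CAMTA3, a calmodulin-binding activator that binds the CGCG core, had 30.1 and 40.2 RPKM at 0.5 h, against 15.9 and 18.4 RPKM at 0 h, and rose by 0.98 ± 0.17 (adjusted p = 0.0174). RVE8 and RVE4, clock MYB factors that bind the evening element, fell by 1.35 ± 0.16 (adjusted p = 0.00617) and 0.77 ± 0.14 (adjusted p = 0.0175). RVE8 had 2.78 and 2.09 RPKM at 0.5 h, against 7.83 and 7.55 RPKM at 0 h, and RVE4 had 61.5 and 62.7 RPKM at 0.5 h, against 111 and 103 RPKM at 0 h. PRR5, a clock repressor of the CBF genes, had 22.3 and 18.6 RPKM at 0.5 h, against 39.2 and 40.3 RPKM at 0 h, and fell by 0.93 ± 0.14 (adjusted p = 0.0118). The other 5 that fell, named here because they complete the count, were CCA1, a morning clock MYB, PRR7 and PRR9, relatives of PRR5, and PIF4 and SOC1, a light-signalling and a flowering factor. Activators and repressors of the CBF genes were thus both among those that fell. PRR9 shares 0.786 of its reads with other places at most, so its value is uncertain. Without the second 0.5 h library 0 regulators were called higher and 1 lower, without the first 0 h library 0 and 2, and without the second 5 were lower. ICE1 had 15.0 and 15.9 RPKM at 0.5 h, against 17.7 and 17.0 RPKM at 0 h, and was not called (adjusted p = 0.444).

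Cold also induces a set of early transcription factors in parallel with the CBFs. Of 12 such genes 11 were tested, 3 rose and 0 fell (6 and 0 at an unadjusted p under 0.05; 3 and 0 by limma-voom), with a median of 0.38. ZAT12, a zinc finger factor of cold and oxidative stress, had 162 and 164 RPKM at 0.5 h, against 92.4 and 63.8 RPKM at 0 h (1.08 ± 0.20, adjusted p = 0.0195). ERF6, an ethylene response factor, had 92.9 and 117 RPKM at 0.5 h, against 49.8 and 52.0 RPKM at 0 h (1.02 ± 0.16, adjusted p = 0.0128). CZF1, a CCCH zinc finger gene, had 94.9 and 113 RPKM at 0.5 h, against 62.8 and 70.7 RPKM at 0 h (0.63 ± 0.16, adjusted p = 0.0468). CRF2, a cytokinin response factor gene, missed the threshold at 0.52 (adjusted p = 0.0603) and passed it (0.0493) when genes with shared reads were left out, in a range of 0.0493 to 0.241. These genes are also known as early responders to wounding and oxidative stress, and without the second 0.5 h library 0 of the 3 calls were left (ZAT12 0.0769, ERF6 0.0536, CZF1 0.194). The CZF1 call was also lost without the first 0.5 h library (0.0564), the first 0 h library (0.179) or the second (0.0891) and with limma without trend (0.0521).

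Of 8 other DREB and related ERF factors 5 were tested and limma called 0 (1 higher and 1 lower at an unadjusted p under 0.05; 0 and 1 by limma-voom), with a median of -0.11. RAP2.6 had 4.27 and 7.80 RPKM at 0.5 h, against 11.7 and 10.8 RPKM at 0 h (-0.84, adjusted p = 0.0676). DREB2A, the drought and heat counterpart of the CBFs, had 88.3 and 122 RPKM at 0.5 h, against 81.0 and 54.1 RPKM at 0 h (0.64, adjusted p = 0.135). RAP2.1 changed by -0.23 and DREB2C by -0.11, neither called. RAP2.6 was called lower with a minimum mean of 5 RPKM (0.0482), without genes with shared reads (0.0488), by limma-voom (0.0462) and without the second 0.5 h library (-1.21, 0.0224), while its change was -0.47 without the first (0.103), in a range of 0.0224 to 0.223. DREB2A had a change of 0.93 without the first 0 h library and 0.35 without the second, and was not called in any alternative.

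Of 15 further cold-regulated genes 12 were tested, 2 rose and 1 fell, with a median of -0.08. ERD10 and ERD7 rose, and COR413-PM1, a membrane protein gene of cold acclimation, fell. ERD7, an early dehydration-responsive gene, had 104 and 130 RPKM at 0.5 h, against 75.1 and 65.6 RPKM at 0 h (0.72 ± 0.17, adjusted p = 0.0385). Its call was lost without the second 0.5 h library (0.164), the first 0 h library (0.0801) or the second (0.138), in a range of 0.0189 to 0.164. COR413-PM1 had 163 and 157 RPKM at 0.5 h, against 376 and 361 RPKM at 0 h, with replicates close together at both times, and fell by 1.20 ± 0.14 (adjusted p = 0.00647). RCI2A, a small membrane protein gene, changed by -0.45 (adjusted p = 0.154). ERD10, ERD7 and COR413-PM1 all held CCGAC matches (3, 2 and 2), against 39.4% of all windows with at least 1. A link between matches and direction of change was not tested.

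The abscisic acid branch gave 0 genes that rose and 3 that fell among 17 tested of 18 (2 and 5 at an unadjusted p under 0.05; 0 and 3 by limma-voom), with a median of -0.14. ABF1, a bZIP factor that binds the ABRE, had 37.6 and 26.7 RPKM at 0.5 h, against 71.7 and 68.9 RPKM at 0 h, and fell by 1.12 ± 0.18 (adjusted p = 0.0140), with up to 0.195 of its reads shared with other places. ABF4, its relative, fell by 0.64 ± 0.14 (adjusted p = 0.0318), and HIS1-3, a drought-inducible linker histone, by 0.92 ± 0.21 (adjusted p = 0.0387). ABF3 changed by -0.45 (adjusted p = 0.109). Without the first 0 h library 0 genes of the list were called lower, and 1 was without either 0.5 h library. The ABF4 call was lost without any 1 of the 4 libraries (0.0643 to 0.151), and the HIS1-3 call without each except the second 0 h library (0.106 to 0.123).

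Of 10 dehydrin genes 8 were tested, and ERD10 and LTI30 rose while 0 fell (3 and 1 at an unadjusted p under 0.05; 2 and 0 by limma-voom), with a median of -0.04. HIRD11, the most abundant, had 1818 and 1505 RPKM at 0.5 h, against 3394 and 2293 RPKM at 0 h (-0.75 ± 0.24, adjusted p = 0.0938). ERD14, the acidic dehydrin gene closest in type to ERD10 and COR47, had 873 and 824 RPKM at 0.5 h, against 1105 and 704 RPKM at 0 h, and RAB18 had 13.1 and 17.4 RPKM at 0.5 h, against 22.6 and 15.5 RPKM at 0 h. Both overlapped between times. Without the second 0.5 h library 1 dehydrin gene was called higher, and without the second 0 h library 1 was called lower.

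**Figure D4:**
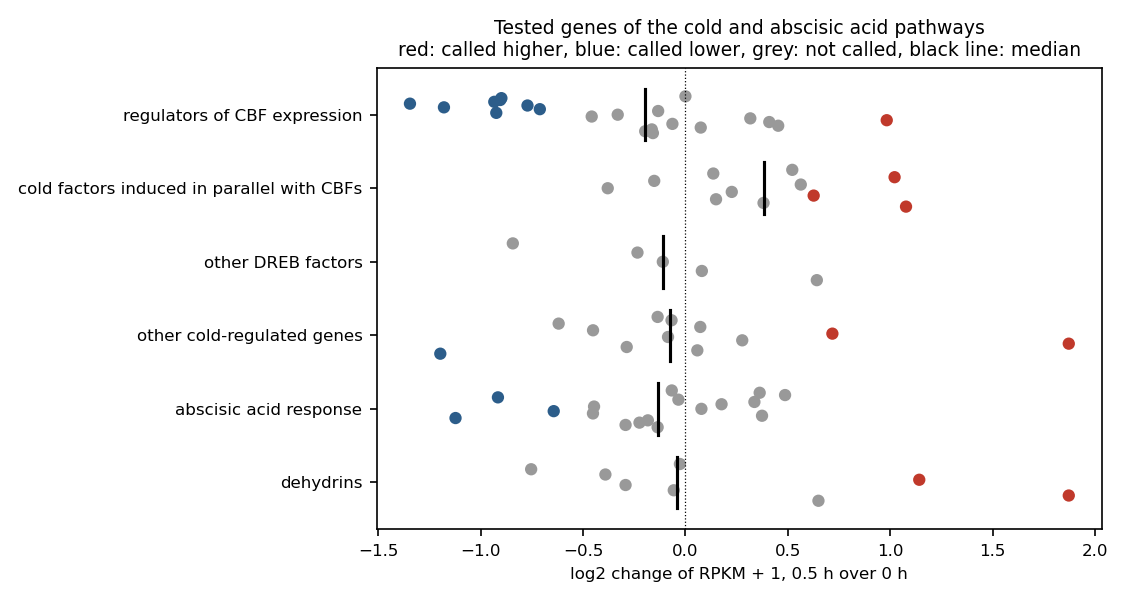
Log2 change of RPKM + 1, 0.5 h over 0 h (horizontal axis), for each tested gene of 6 lists, with called genes in red (higher) and blue (lower), genes not called in grey and the list median as a black line. Regulators of CBF expression hold 8 blue points and 1 red point, and the cold factors induced in parallel with CBFs hold 3 red points and 0 blue ones. ERD10, RD29B and RAB18 each appear in 2 lists.

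The genes whose log2 values followed each called gene most closely over the 4 libraries, by Euclidean distance after centring, were looked up among all tested genes. For CBF1 they were AT4G04972 (0.0434), AT1G28070 (0.0462) and AT2G35260 (0.0580). AT2G35260 had 41.8 and 52.4 RPKM at 0.5 h, against 86.1 and 81.0 RPKM at 0 h, the same order of libraries within 0.5 h as CBF1. For CBF2 they were J8 (AT1G80920; 0.0722), UPB1 (AT2G47270; 0.0767) and AT5G65207 (0.114). J8 had 553 and 534 RPKM at 0.5 h, against 1256 and 806 RPKM at 0 h, with the first 0 h library on top as for CBF2. For LTI30 they were ZAT12 (0.0753), the heat shock chaperone gene HSP70 (AT3G12580; 0.0852) and AT3G59880 (0.107). HSP70 had 166 and 189 RPKM at 0.5 h, against 95.6 and 65.3 RPKM at 0 h. Distances under 0.1 were found for 11 genes with CBF1, 2 with CBF2 and 2 with LTI30, and 4 libraries leave many genes with a like pattern.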

How the data were processed

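The 2 libraries per group were TruSeq RNA libraries from total RNA (per the labels). The authors deposited 1 table of RPKM for 33602 genes, TMM-scaled as its name says, with gene lengths and each gene's highest fraction of multi-mapped reads. The submitters' processing notes name TAIR10 and SAMtools. For the aligner, the counter and strandedness, the sources used here give nothing.

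Genes averaging 1 RPKM or more were tested with limma 3.58.1 (R 4.3.3, intensity trend) on log2(RPKM + 1), which understates changes of low genes, with group alone, two-sided p and Benjamini-Hochberg adjustment at 0.05. Residual degrees of freedom were 2 and prior ones 4.824. The procedure was also run on simulated data, with the same spread setting for all genes and planted changes larger than those of CBF1 and CBF2. The outcome of that run is not given here, so it does not vouch for the calls. Intervals are 95% limma intervals. Reads were recovered from RPKM and length, with 0.5 read added per gene, and came out whole (within 0.05) in 99.992 to 100.0% of genes without shared reads, against 47.5 to 51.7% of genes that share reads. They served a limma-voom alternative, and no count test was run, because many shared reads are fractions. Replicates differed beyond counting error (chi-square per gene 25.14 at 0.5 h, 20.31 at 0 h). Chloroplast genes held 0.0848 and 0.379% of reads at 0.5 h, and 0.0974 and 0.0569% at 0 h.

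Gene names and sequences came from TAIR10.1 (RefSeq), where 32835 loci matched by tag; the deposited table has no coordinates, and all coordinates are those of TAIR10.1. Windows end at the start codon, and sites are counted from the first base of the match. Coding identity was computed with Biopython 1.88.

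The 10 genes and the lists were chosen with earlier results of these data known. Named were the 10 genes, in each list the 4 tested genes of lowest p, the 2 tissue markers with the highest mean, and the 3 nearest patterns of CBF1, CBF2 and LTI30; others were named after their values were seen.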

Additional observations from a re-analysis of the deposited data

How the results depend on the processing

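Alternatives were pseudocounts of 0.1 and 5, no minimum and a minimum mean of 5 RPKM, median-of-ratios and quantile scaling, limma without trend, limma with robust estimation, the replicate number as a block, 1 library fewer, leaving out genes with a shared-read fraction above 0.05, limma-voom, and adding copies together. Scaling moved the median of all genes by less than 0.1. With no minimum, which tests 25203 genes, all genes called fell to 165 higher and 86 lower, the 10 genes to 0 in either direction, CBF regulators to 0 and 0, parallel cold factors to 0 higher, abscisic acid genes to 0 lower, and other cold-regulated genes and dehydrins to 1 higher each. Among the 10 genes 2 were higher with quantile scaling, and 1 was lower with a pseudocount of 5 (CBF2 adjusted p = 0.0536), a minimum of 5 RPKM (CBF1 left out), limma without trend (CBF2 0.0576) and limma-voom (CBF2 0.0522). With that minimum, without shared genes and with limma-voom, 1 other DREB factor was lower. Leaving out a library gave 489 to 1131 higher and 234 to 787 lower genes, 0 to 2 of the 10 genes higher and 0 to 1 lower, 0 to 1 CBF regulators higher and 1 to 7 lower, 0 to 2 parallel factors higher, 0 to 1 other DREB factors lower, 1 to 2 other cold-regulated genes higher and 1 to 2 lower, 0 to 2 abscisic acid genes lower, and 1 to 3 dehydrins higher and 0 to 1 lower. It turned the sign of genes that were not called: COR15B (-0.54 to 0.16), KIN2 (-0.27 to 0.48), DREB2C (-0.22 to 0.0025), RBCS1A (-0.040 to 0.049), PYK10 (-0.72 to 0.070) and NRT2.1 (-0.016 to 1.12). The replicate numbers do not pair the libraries (correlation of same-number deviations -0.0778); the replicate block gave 1127 higher and 834 lower genes, left the calls among the 10 genes at 1 and 2, and left 1 other cold-regulated gene higher, since ERD7 lost its call (adjusted p = 0.0576). The cause of these shifts was not tested. Depth limits COR15A, CBF3 and KIN1, which had 6 to 42 reads per library.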

Other observations

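RCI2B, ELIP1 and ELIP2 of the cold list differed more between the 0 h replicates than the means differed between times. RCI2B, a small membrane protein gene next to RCI2A, had 5.58 and 9.47 RPKM at 0.5 h, against 2.55 and 16.5 RPKM at 0 h. ELIP1, which encodes a chlorophyll-binding protein of the light stress response, had 4.81 and 3.04 RPKM at 0.5 h, against 3.54 and 11.2 RPKM at 0 h, and its relative ELIP2 had 2.72 and 1.47 RPKM at 0.5 h, against 0.850 and 4.46 RPKM at 0 h. In these 3 genes the second 0 h library was the highest of the 4, while in all 10 CBF and cold-regulated genes described above the first 0 h library was the higher of the 2 at that time. They were named after their values were seen.

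COR27 and COR28 are cold-induced genes that feed back on the clock. COR27 had 125 and 143 RPKM at 0.5 h, against 127 and 95.2 RPKM at 0 h. COR28 had 62.0 and 72.7 RPKM at 0.5 h, against 74.8 and 67.9 RPKM at 0 h. Both overlapped between times, and neither was called.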
